A study of Mus musculus with 6 samples.

Results

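Histone genes encode the proteins around which DNA is wound, and 82 of the 54532 genes in the deposited count table were taken as histone genes here. The rule that picked them uses name and type and no measured value, but it was set with earlier results of these data known. It takes each protein-coding gene whose symbol starts with Hist1h, Hist2h, Hist3h, Hist4h, H1f, H2af or H3f. Of these, 67 are replication-dependent genes, with 18 for H2A, 18 for H2B, 12 for H3, 13 for H4 and 6 for the linker H1. The other 15 are replication-independent, with 9 H2A variants, 2 H3 variants and 4 linker genes. The RNA came from CD4+ T cells of the spleen of C57BL/6 mice in the acute phase of EAE (experimental autoimmune encephalomyelitis, a model of multiple sclerosis). There were 3 control libraries, of genotype wild type, and 3 Ogt-KD libraries, of genotype Ogtfl/wt CD4-Cre. Ogt is the X-linked gene for O-GlcNAc transferase, the enzyme that puts a single sugar on many proteins of the nucleus and cytoplasm, and the comparison asks how its targeting in T cells went with RNA levels during the disease. Only 1 of the alleles was floxed, the Cre is driven by Cd4 regulatory sequence that is active from the thymus onwards, and no Cre is named for the controls, so effects of the Cre and of Ogt cannot be told apart. The labels give no age or sex, and all mice of both groups had EAE.

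A nucleosome holds a pair each of H2A, H2B, H3 and H4, and linker histones bind where DNA enters and leaves it. Replication-dependent histone genes lie in clusters, have almost no introns and are switched on in S phase, when new DNA has to be packed. Their mRNAs usually end just past a short stem-loop instead of in a poly(A) tail; the stem-loop is bound by the protein Slbp, and cleavage is guided by the U7 small nuclear RNA with Lsm10 and Lsm11. When a cell leaves the cycle or differentiates, some of these genes use a poly(A) signal further downstream and give polyadenylated mRNA. Replication-independent genes, such as H3f3a, H3f3b and H2afz, are polyadenylated and expressed throughout the cycle. The library kit that the labels name selects poly(A) RNA in its standard protocol, but the labels do not state the selection step. Levels of histone mRNAs without a tail are therefore to be read only between libraries and not as their amounts in the cell.

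The stem-loop was searched in the GENCODE M21 transcripts (GRCm38) after each stop codon, on the transcript strand, as 16 bases that begin with GG and end with CC, with the outer 6 bases on each side pairing by Watson-Crick rules. The base before the loop of 4 had to be T and the base after it A, and the second base of the loop T. It was found in 44 replication-dependent genes and in H2afx, against 43 other protein-coding genes, or 0.192% of the others searched. The sequences below are those of genes named in the results, with the 16 bases of the stem-loop in capitals and up to 5 bases on each side in lower case.
Hist1h2ao, chr13:21810898-21810913, plus strand: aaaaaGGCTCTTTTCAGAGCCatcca
Hist1h2bj, chr13:22043638-22043653, plus strand: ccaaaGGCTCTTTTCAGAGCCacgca
Hist1h2bm, chr13:21722506-21722521, plus strand: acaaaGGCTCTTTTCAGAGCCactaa
Hist1h2bk, chr13:22036300-22036315, plus strand: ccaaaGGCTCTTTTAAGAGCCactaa
Hist1h3c, chr13:23745047-23745062, minus strand: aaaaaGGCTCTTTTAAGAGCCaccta
Hist2h2ac, chr3:96220418-96220433, minus strand: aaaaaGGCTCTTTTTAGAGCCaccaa
Hist1h4i, chr13:22040966-22040981, minus strand: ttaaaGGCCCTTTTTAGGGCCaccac
Hist1h4c, chr13:23698089-23698104, minus strand: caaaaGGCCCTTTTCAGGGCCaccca
Hist1h1c, chr13:23739512-23739527, plus strand: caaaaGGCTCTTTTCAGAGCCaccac
H2afx, chr9:44335240-44335255, plus strand: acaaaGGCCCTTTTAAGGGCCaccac
The form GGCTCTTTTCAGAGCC was in 26 genes, 10 for H2A, 8 for H2B, 5 for H3 and 3 for H1. The form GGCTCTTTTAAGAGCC, with another base in the loop, was in 6 genes, among them Hist1h2bk and Hist1h3c. H4 genes had a different stem: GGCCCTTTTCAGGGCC in 7, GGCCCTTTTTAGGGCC in Hist1h4i and Hist2h4, and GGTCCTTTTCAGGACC in Hist1h4b and Hist1h4j. The loop lay 21 to 58 bases past the stop codon in the 44 replication-dependent genes.

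Promoters from RefSeq (GRCm38.p6), of 300 bases around the annotated start, matched 76 of the 82 genes. Hist2h2be, Hist2h4, H2afx, Hist1h3f, Hist1h2bc and Hist1h3a had no entry. Motifs were searched on both strands and may overlap: the octamer ATTTGCAT, a site of Oct-1 and Oct-2 known from H2B promoters, the CCAAT box CCAAT, the TATA box TATAAA and the H1 box AAACACA. The octamer was in 7 of 17 H2B promoters (41.2%) and 7 of 18 H2A promoters (38.9%), in none of the 10 H3, 12 H4 and 6 replication-dependent H1 promoters, and in 1.74% of all 32851 promoters. Among the replication-independent genes it was in the promoter of H3f3b. CCAAT was in every H2A, H2B, H3 and replication-dependent H1 promoter and in 3 of 12 H4 promoters (25%), against 37.4% of all promoters. The H1 box was in 5 of 6 replication-dependent H1 promoters (83.3%) and 7.18% of all promoters. Many H2A and H2B genes face away from each other across one short promoter. There were 13 such pairs of histone genes with start sites within 1000 bases, 12 of them an H2A and an H2B gene. The printed promoters span 3 of them, with octamer, CCAAT and TATAAA matches in capitals.
Hist2h2ac, chr3:96220831-96221130, minus strand: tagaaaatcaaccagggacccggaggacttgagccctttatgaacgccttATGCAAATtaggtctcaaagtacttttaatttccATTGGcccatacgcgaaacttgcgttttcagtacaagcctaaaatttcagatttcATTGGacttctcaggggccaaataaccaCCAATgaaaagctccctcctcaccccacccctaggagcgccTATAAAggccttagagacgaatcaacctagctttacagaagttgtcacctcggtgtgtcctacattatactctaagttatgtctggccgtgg
Hist1h2bk, chr13:22035571-22035870, plus strand: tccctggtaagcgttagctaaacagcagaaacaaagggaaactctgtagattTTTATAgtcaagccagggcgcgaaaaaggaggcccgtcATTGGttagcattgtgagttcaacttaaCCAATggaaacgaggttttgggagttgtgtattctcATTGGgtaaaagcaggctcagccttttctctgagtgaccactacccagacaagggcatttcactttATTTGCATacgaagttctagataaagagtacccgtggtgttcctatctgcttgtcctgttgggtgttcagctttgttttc
Hist1h2bj, chr13:22042948-22043247, plus strand: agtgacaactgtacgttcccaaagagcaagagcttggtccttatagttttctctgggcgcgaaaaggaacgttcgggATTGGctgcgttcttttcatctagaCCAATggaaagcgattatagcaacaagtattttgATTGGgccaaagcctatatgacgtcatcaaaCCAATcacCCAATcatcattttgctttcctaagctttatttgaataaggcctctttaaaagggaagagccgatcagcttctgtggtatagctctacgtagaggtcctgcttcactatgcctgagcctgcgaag
The Hist2h2ac promoter also covers the start of Hist2h2be, 239 bases away on the opposite strand. That of Hist1h2bk starts 3 bases from the first base of Hist1h2ah, and that of Hist1h2bj 4 bases from that of Hist1h2ag. Hist2h2ac and Hist1h2bk each had 1 octamer, 3 CCAAT and 1 TATAAA match, and Hist1h2bj had 5 CCAAT matches and neither of the others in these letters. Matches are descriptions of sequence and not binding sites.

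The ranges of Ogt RNA overlapped between the groups. It stood at 599.2, 627.9 and 562.4 CPM (the read count scaled by library size) in control replicates 1, 2 and 3, and at 661.9, 598.8 and 458.6 CPM in Ogt-KD replicates 1, 2 and 3. On the log2 scale Ogt-KD minus control was -0.06 (SE 0.15, 95% interval -0.41 to 0.30, edgeR adjusted p = 0.981), so the gene's RNA level does not check the labels, and a deletion of part of the transcript could leave the count unchanged. The libraries held 18127031 to 25683453 counted reads. The first principal component, with 44.8% of the variance, put replicate 3 of both groups (scores 40.7 and 38.4) far from Ogt-KD replicates 1 and 2 (-35.7 and -42.4). All 9 T cell markers were present, at 4143 to 4888 CPM summed per library, and every marker of other cell types found in the table also had reads in at least 1 library. Dendritic cell and antigen presentation markers summed to 1208, 1205 and 569 CPM in the control libraries and 1945, 2804 and 1043 in the Ogt-KD libraries. Erythroid markers summed to 121, 97.6 and 155 against 127, 147 and 366 CPM, and macrophage markers to 1534, 1612 and 3847 against 632, 749 and 3448 CPM. In these bulk samples, fewer cells of a type and less RNA per cell cannot be told apart.

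Histone reads came mainly from the replication-independent genes. All 82 genes together took 0.161 to 0.189% of the reads in the control libraries and 0.190 to 0.212% in the Ogt-KD libraries. As summed CPM the groups overlapped, at 1874, 1616 and 1932 in the control libraries against 1821, 1906 and 2172 in the Ogt-KD libraries. The 67 replication-dependent genes took 0.00692 to 0.00959% in the control libraries and 0.00821 to 0.00868% in the Ogt-KD libraries, or 1606 to 2229 reads per library. Of the 82 genes, 13 had no read in any library and 41 had enough reads to be tested. The other 28 had a read in at least 1 library but did not pass the filter on low counts.

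On the deposited FPKM scale, which divides by gene length, the tested replication-dependent genes had a median level of 1.49 FPKM over the 6 libraries and the tested replication-independent genes one of 49.6, with 4.96 over all genes tested. H3f3b, a gene for the replacement histone H3.3, had 204.3 FPKM and H2afz, for the variant H2A.Z, 197.1 FPKM. H2afj, H3f3a, H2afy, H2afx, H1f0 and H2afv followed at 84.0, 53.1, 46.2, 37.2, 36.8 and 31.4 FPKM. The least abundant of these was above the most abundant replication-dependent gene, Hist1h1c, at 14.4 FPKM. Hist1h4i had 9.94 FPKM, and Hist1h2bj, Hist1h2bc, Hist3h2ba and Hist2h2be had 4.25, 4.14, 4.07 and 4.06 FPKM. Several of these carry an annotated end far past the stem-loop or no stem-loop: the model of Hist1h1c runs on for 840 bases and that of Hist1h4i for 330, and in Hist2h2be and Hist1h2bc no stem-loop was found. The model of Hist3h2ba runs on for 169 bases, whereas that of Hist1h2bj ends 23 bases past its stem-loop.

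**Figure D1:**
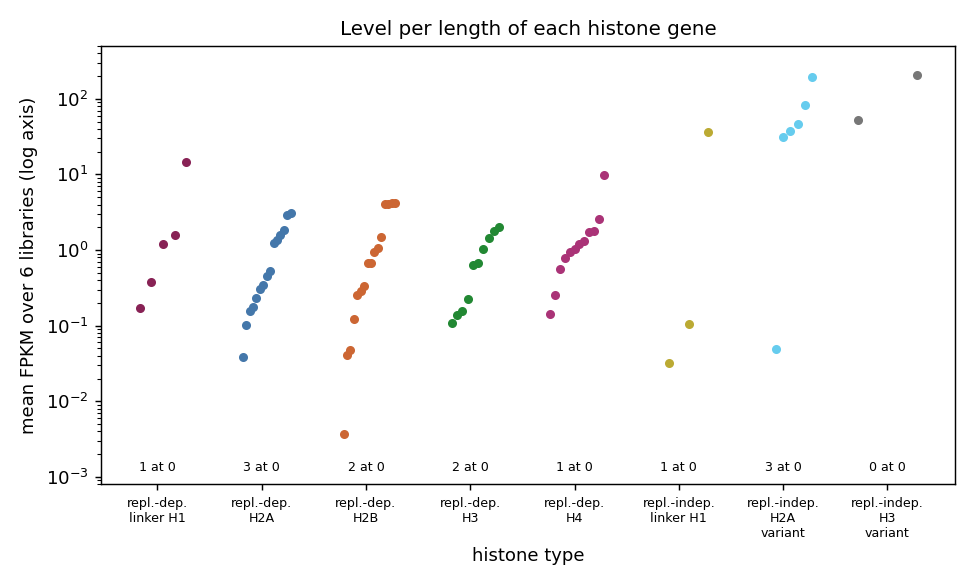
Mean level over the 6 libraries, in deposited FPKM on a log axis, of the 69 histone genes with a read, grouped by histone type; each point is 1 gene, and the number of genes at 0 stands under each type. The 8 tested replication-independent genes lie between 31.4 and 204.3 FPKM, above all replication-dependent genes, which reach 14.4 FPKM.

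No histone gene differed between the groups past the test's threshold. Most of them nevertheless lay slightly higher in the Ogt-KD libraries. Of the 41 tested genes, 0 had an edgeR adjusted p under 0.05, the smallest being 0.556, and over all 16075 genes tested 1 did (0.00622%). DESeq2 and limma-voom also called 0 histone genes, and edgeR with the replicate number as a block called 0, with a smallest adjusted p of 0.127, for H1f0, against 47 of all genes (0.292%). In the authors' deposited table, 0 of the 68 histone genes with an adjusted p were under 0.05, the smallest being 0.466, and 110 of 26365 genes were (0.417%). At an unadjusted p under 0.05, edgeR had 6 histone genes higher in Ogt-KD (background 5.04% of all genes) and 1 lower (background 2.48%), 7 in all against 7.52% of all genes. The 6 were Hist1h2ao, Hist1h2bm, Hist1h2bk, Hist1h2bj, Hist1h3c and H2afv, and the lower one was Hist2h2be. Hist1h2bm and Hist1h2bk passed the filter on low counts only through the Ogt-KD libraries and so had to differ. Over the other 39 tested genes, 4 were higher and 1 lower at that level. At that level limma-voom had 7 of 41 histone genes and 1132 of all 16075 genes. DESeq2, run without that filter, had 7 of 69 histone genes and 1267 of all 28456 genes. The block fit had 9 of 41, where all genes had 13.2%.

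The median log2 fold change over the 41 tested histone genes was 0.26, with 30 above 0 and 11 below, whereas over all tested genes it was -0.005, with quartiles of -0.13 and 0.16 and 49% above 0. Without Hist1h2bm and Hist1h2bk the median was 0.25. Medians by type were 0.58 over 9 H2B genes, or 0.19 over 7 without those 2, 0.27 over 4 H3 genes, 0.25 over 9 H4 genes, 0.20 over 4 replication-dependent H1 genes and 0.14 over 7 H2A genes. Those of the replication-independent genes were 0.26 over 5 H2A variants and 0.01 over both H3 variants. Summed over all 67 replication-dependent genes, however, the groups overlapped: 88.7, 69.5 and 98.0 CPM in the control libraries against 78.7, 82.0 and 89.1 CPM in the Ogt-KD libraries. Hist1h1c and Hist2h2be, the replication-dependent genes with the most reads, had lower means in Ogt-KD, and Hist1h4i, the next, a higher one.

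**Figure D2:**
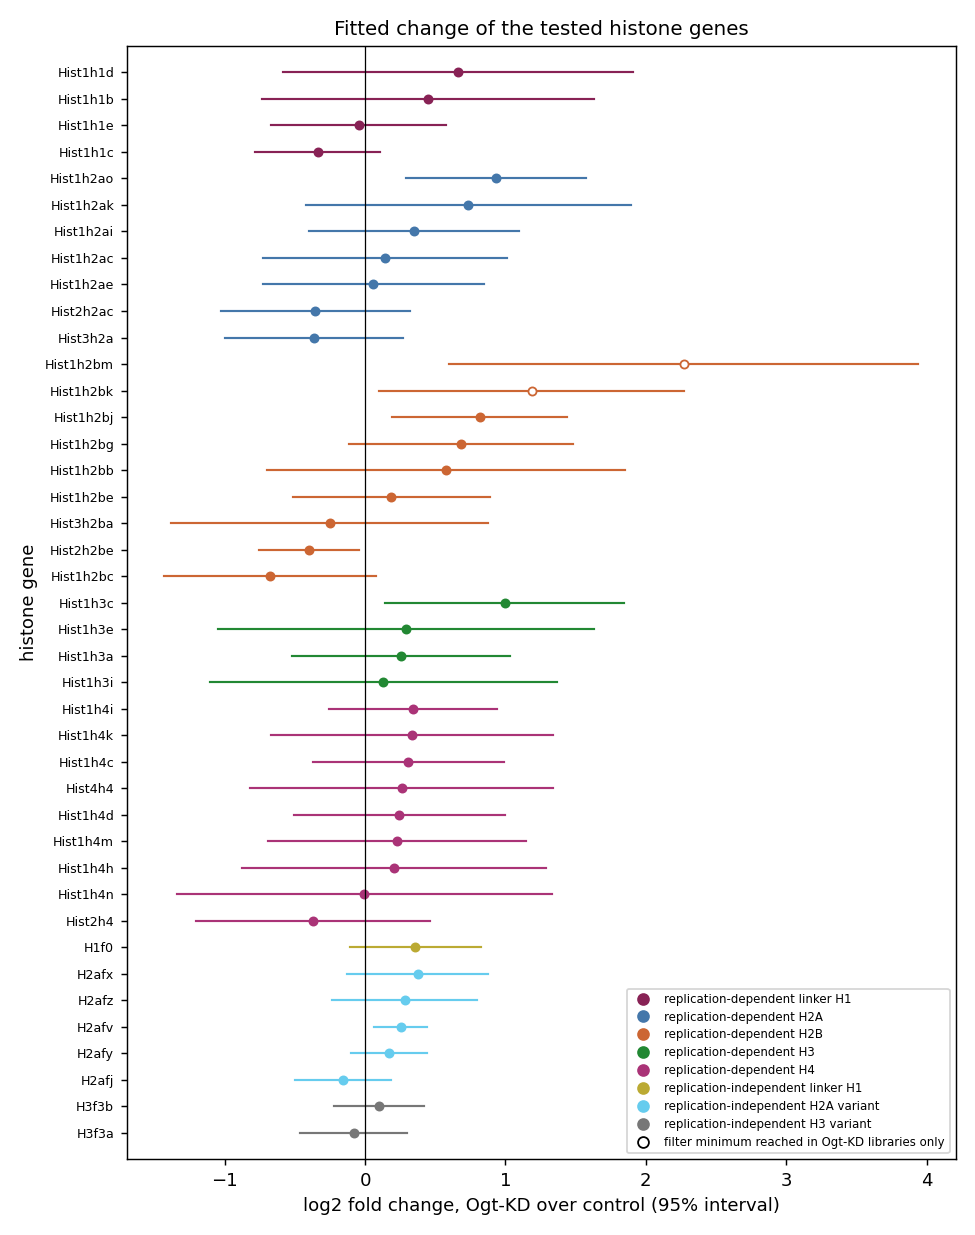
Log2 fold change (Ogt-KD over control) for each of the 41 tested histone genes, with 95% intervals from edgeR, grouped by histone type; the line at 0 marks no difference, and open points mark the 2 genes that reached the filter minimum in the Ogt-KD libraries only. Of the 41 points 30 lie above 0, and no gene passed the adjusted threshold.

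Linker histones compact the chromatin fibre, and their 2 most abundant genes pointed in different directions. Hist1h1c, for H1.2, was at 25.3, 20.3 and 30.3 CPM in the control libraries and 16.6, 20.1 and 23.3 CPM in the Ogt-KD libraries. The ranges overlapped, and the log2 fold change was -0.34 (SE 0.19, unadjusted p = 0.118). By replicate number, each Ogt-KD library was below its control library, narrowly so in replicate 2. With the replicate block the unadjusted edgeR p of Hist1h1c was 0.047 and its adjusted p 0.37. H1f0, for H1.0, a linker known for its accumulation in resting and differentiated cells, was at 63.8, 51.8 and 84.8 CPM against 85.6, 71.6 and 99.4 CPM. Each Ogt-KD library was above the control library of its own replicate number, but the ranges overlapped across numbers (log2 fold change 0.36, SE 0.20, unadjusted p = 0.113). With the replicate block its unadjusted edgeR p was 0.00335 and its adjusted p 0.127. Hist1h1d was at 1.28, 0.362 and 1.35 against 1.76, 1.98 and 0.959 CPM, a log2 fold change of 0.66 (SE 0.53). Hist1h1b was at 0.868, 0.483 and 0.958 against 1.67, 0.963 and 0.519 CPM, a log2 fold change of 0.45 (SE 0.50). In both genes Ogt-KD replicate 3 was the lowest library of its group and lay inside the control range. Hist1h1e was at 3.93, 2.25 and 3.32 against 3.13, 2.74 and 3.32 CPM, with overlapping ranges and a log2 fold change of -0.04 (SE 0.26). Its model overlaps that of Hist1h2be on the same strand, so reads of the 2 genes may be split between them.

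Among H2A genes, Hist1h2ao stood apart by group. It had 21, 21 and 19 reads in the control libraries, or 0.959, 0.846 and 1.07 CPM, and 39, 29 and 52 reads in the Ogt-KD libraries, or 1.91, 1.47 and 2.08 CPM. All 3 Ogt-KD values were above all control values (log2 fold change 0.93, SE 0.27, 95% interval 0.29 to 1.58, edgeR adjusted p = 0.556). Only 6.5% of its 50-base stretches are unique among annotated transcripts, so reads of near-identical H2A genes may have been counted here. Hist1h2ak had 5, 8 and 10 against 14, 7 and 19 reads, with overlapping CPM ranges (log2 fold change 0.74, SE 0.49). Hist3h2a, on chromosome 11 and not in the large cluster, was at 3.29, 2.34 and 4.22 against 2.50, 2.43 and 2.68 CPM. Hist2h2ac was at 2.15, 1.29 and 2.03 against 1.42, 1.32 and 1.52 CPM. Both had overlapping ranges, with log2 fold changes of -0.37 (SE 0.27) and -0.35 (SE 0.29).

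The 9 tested H2B genes ran from -0.68 to 2.27 on the log2 scale, and to 0.82 without Hist1h2bm and Hist1h2bk, which passed the filter only through the Ogt-KD libraries. Hist1h2bj was at 1.05, 1.57 and 1.69 CPM in the control libraries and 2.50, 2.69 and 2.40 CPM in the Ogt-KD libraries. Every Ogt-KD library was above every control library (log2 fold change 0.82, SE 0.27, 95% interval 0.19 to 1.44, edgeR adjusted p = 0.583). Hist1h2bm had 0, 5 and 3 reads against 12, 11 and 16, and Hist1h2bk 3, 9 and 6 against 16, 12 and 13. Both were therefore at very low levels, higher in each Ogt-KD library, with fitted log2 fold changes of 2.27 (SE 0.71) and 1.19 (SE 0.46).

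The 2 H2B genes with the most reads lay the other way. Hist2h2be was at 13.7, 10.6 and 12.3 CPM in the control libraries and 8.91, 9.18 and 9.63 CPM in the Ogt-KD libraries, which did not overlap (log2 fold change -0.40, SE 0.15, 95% interval -0.76 to -0.04, edgeR adjusted p = 0.624). Hist1h2bc was at 5.34, 3.91 and 8.56 against 3.04, 4.16 and 3.92 CPM, which did overlap (log2 fold change -0.68, SE 0.32). Both belong to the 5 replication-dependent genes with a long annotated end in which no stem-loop was found. Hist3h2ba, at 3.56, 1.69 and 2.98 against 3.23, 0.963 and 2.68 CPM, and Hist1h2be, at 1.69, 1.13 and 1.41 against 1.96, 1.62 and 1.24 CPM, had overlapping ranges. Their log2 fold changes were -0.25 (SE 0.48) and 0.19 (SE 0.30).

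Both genes of an H2A-H2B pair were tested in 3 pairs. In the pair whose promoter is printed first, Hist2h2ac and Hist2h2be both lay lower, at -0.35 and -0.40. Across 251 bases, Hist1h2ac was at 0.14 and Hist1h2bc at -0.68, and across 176 bases Hist1h2ae was at 0.06 and Hist1h2bg at 0.68. In the pairs of the other printed promoters only the H2B gene was tested: Hist1h2bk and Hist1h2bj had 59 and 256 reads over all libraries, and their H2A partners Hist1h2ah and Hist1h2ag 12 and 29.

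All 4 tested H3 genes had log2 fold changes above 0. Hist1h3c was at 0.502, 0.805 and 1.24 CPM in the control libraries and 1.76, 1.62 and 1.64 CPM in the Ogt-KD libraries, with no overlap (log2 fold change 0.996, SE 0.361, edgeR adjusted p = 0.621). Hist1h3a had 22, 18 and 16 against 22, 26 and 19 reads, Hist1h3e 20, 9 and 4 against 18, 10 and 12, and Hist1h3i 11, 20 and 7 against 19, 14 and 7. Their CPM overlapped between the groups, at log2 fold changes of 0.26 (SE 0.33), 0.29 (SE 0.57) and 0.13 (SE 0.53). Without Ogt-KD replicate 1, or without control replicate 3, those of Hist1h3e and Hist1h3i were below 0, as was that of Hist1h3i with limma-voom. Summed over all 12 H3 genes, the control libraries were at 4.25, 4.23 and 4.11 CPM and the Ogt-KD libraries at 6.17, 5.73 and 4.44 CPM, with replicate 3 close to the controls.

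The H4 genes differed little, with log2 fold changes between -0.37 and 0.34 over the 9 tested. Hist1h4i was at 5.53, 5.48 and 8.28 CPM in the control libraries and 6.07, 8.77 and 9.51 CPM in the Ogt-KD libraries, higher in each Ogt-KD library than in the control of the same number but overlapping across numbers (log2 fold change 0.34, SE 0.26). Hist1h4d was at 3.24, 2.21 and 2.70 against 2.60, 2.43 and 4.59 CPM, where Ogt-KD replicate 3 alone lay above the controls (log2 fold change 0.24, SE 0.32). Without that library its log2 fold change was below 0. Hist2h4 was at 2.79, 1.77 and 1.24 against 1.32, 1.82 and 1.36 CPM, inside the control range (log2 fold change -0.37, SE 0.35). Hist1h4c had 21, 17 and 18 against 23, 21 and 27 reads, or 0.959, 0.685 and 1.01 against 1.13, 1.06 and 1.08 CPM. Its groups did not overlap, by a narrow margin (log2 fold change 0.31, SE 0.29). Hist1h4k had 15, 11 and 6 against 14, 8 and 19 reads, with overlapping CPM (log2 fold change 0.34, SE 0.43).

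Of the replication-independent genes, H2afv, for the second H2A.Z protein, had the smallest spread. It was at 47.1, 49.4 and 44.8 CPM in the control libraries and 56.2, 56.2 and 56.3 CPM in the Ogt-KD libraries, with no overlap (log2 fold change 0.26, SE 0.08, 95% interval 0.07 to 0.44, edgeR adjusted p = 0.569). H2afz, for the main H2A.Z protein, was at 306, 275 and 371 against 304, 338 and 517 CPM. Only Ogt-KD replicate 3 exceeded the control range (log2 fold change 0.28, SE 0.22). H2afx, whose product is phosphorylated at DNA breaks, was at 41.1, 53.1 and 41.0 against 70.2, 64.3 and 41.1 CPM. Here Ogt-KD replicates 1 and 2 exceeded all controls and replicate 3 did not (log2 fold change 0.38, SE 0.21). H2afy, for macroH2A1, was at 312, 304 and 279 against 360, 355 and 291 CPM, again with replicate 3 inside the control range (log2 fold change 0.17, SE 0.11). H2afj was at 162, 144 and 183 against 142, 125 and 172 CPM, lower in each Ogt-KD library than in the control of the same number (log2 fold change -0.16, SE 0.14). The H3.3 genes overlapped between the groups: H3f3a was at 212, 164 and 201 against 157, 166 and 222 CPM (log2 fold change -0.08, SE 0.16). H3f3b was at 642, 503 and 629 against 567, 648 and 684 CPM (log2 fold change 0.10, SE 0.14). Of the 82 histone genes, 32 overlap another gene model, among them H2afy, H2afj, H2afx, H3f3a and H1f0, each on the other strand. The strand setting of the counting is not given in the sources used here.

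In 8 tested genes every Ogt-KD library was above every control library (background 7.43% of all tested genes) and in 1 every one was below (background 5.88%). Without Hist1h2bm and Hist1h2bk, which had to differ, it was 6 and 1 of 39. The 8 were the 6 named above with the smallest p, Hist1h2bg at 0.639, 0.805 and 0.676 against 1.08, 1.52 and 0.839 CPM, and Hist1h4c. The 1 below was Hist2h2be. Among the 28 genes with reads that were not tested, Hist1h2ag, Hist1h2ad, Hist1h3d and H2afy2 were higher in every Ogt-KD library and Hist1h3f lower, all at very few reads. Hist1h2ad, for example, had 1, 2 and 0 reads in the control libraries and 2, 3 and 4 in the Ogt-KD libraries. The share over all untested genes was not computed, so nothing is drawn from these genes.

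**Figure D3:**
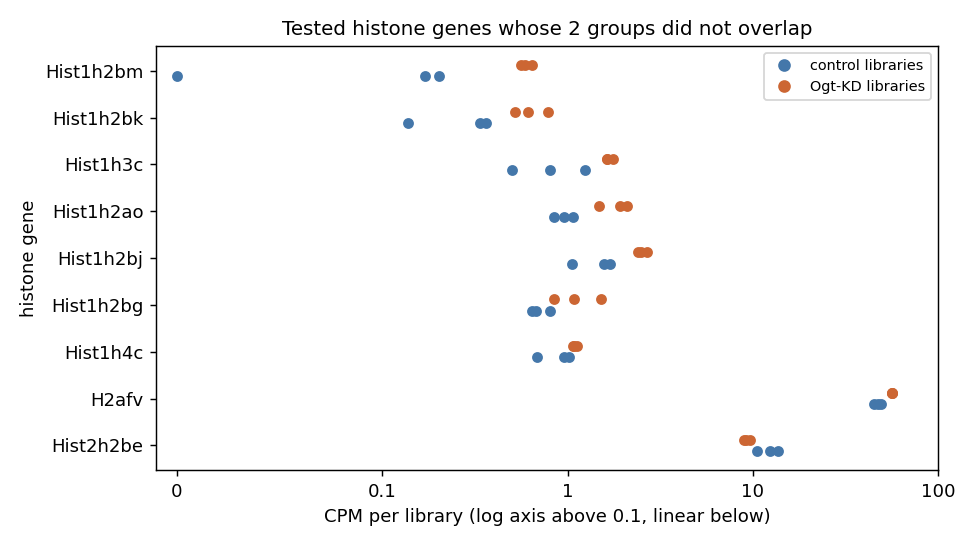
CPM in each of the 6 libraries for the 9 tested histone genes whose groups did not overlap; points are libraries, and the axis is logarithmic above 0.1 CPM and linear below it. Of the 8 higher genes, 7 lie under 3 CPM in every library and H2afv between 44.8 and 56.3, and Hist2h2be is the gene whose Ogt-KD points lie below the controls.

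Sorting the replication-dependent genes by annotated 3′ end, a grouping made after the data were seen, gave classes whose summed levels differed between the groups in different directions. In 22 genes the model ends 3 to 74 bases past the stem-loop, and in 22 it runs on for 151 to 4884 bases. In 18 the model has a short end with no stem-loop, 15 of them with at most 2 bases after the stop codon, and in 5 it has a long end with no stem-loop. The 22 genes that end near the stem-loop summed to 8.08, 8.34 and 11.2 CPM in the control libraries and 13.96, 13.03 and 14.15 CPM in the Ogt-KD libraries, a mean of 9.21 ± 1.74 against 13.7 ± 0.599 (SD, n = 3). Every Ogt-KD library was above every control library, and this held without the most abundant gene of the class, Hist1h2bj: 7.03, 6.77 and 9.52 against 11.5, 10.3 and 11.8 CPM. However, the class holds 5 genes already named as higher at an unadjusted edgeR p under 0.05 (5.04% of all genes were). These are Hist1h2ao, Hist1h2bj, Hist1h2bm, Hist1h2bk and Hist1h3c, and without all 5 the summed levels of the groups overlapped. Of the 19 genes of this class with reads, 15 had a higher mean CPM in Ogt-KD and 4 a lower one. The class rests on few reads, 177 to 207 per control library and 257 to 354 per Ogt-KD library. Over its 11 tested genes the median log2 fold change was 0.58, and over the 9 that passed the filter through both groups 0.26.

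The 22 genes that run on past the stem-loop overlapped between the groups, at 57.1, 42.5 and 61.2 CPM against 45.5, 49.3 and 56.0 CPM. Hist1h1c made up 43.6% of that class, and the median over its 15 tested genes was 0.19. It was -0.003 without Ogt-KD replicate 3. The 18 genes with a short end and no stem-loop summed to 3.88, 4.03 and 4.28 against 6.91, 5.98 and 4.80 CPM, every Ogt-KD library above every control library. These sums rest on very few reads, 85, 100 and 76 in the control libraries and 141, 118 and 120 in the Ogt-KD libraries. Only 5 of the 18 genes were tested, with a smallest edgeR adjusted p of 0.825. The 5 genes with a long end and no stem-loop summed to 19.7, 14.6 and 21.2 against 12.3, 13.7 and 14.1 CPM, every Ogt-KD library below every control library. Hist2h2be made up 67.2% of that class, and without it the groups overlapped, at 6.03, 4.07 and 8.90 against 3.38, 4.51 and 4.48 CPM. Differences between the classes were not tested.

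**Figure D4:**
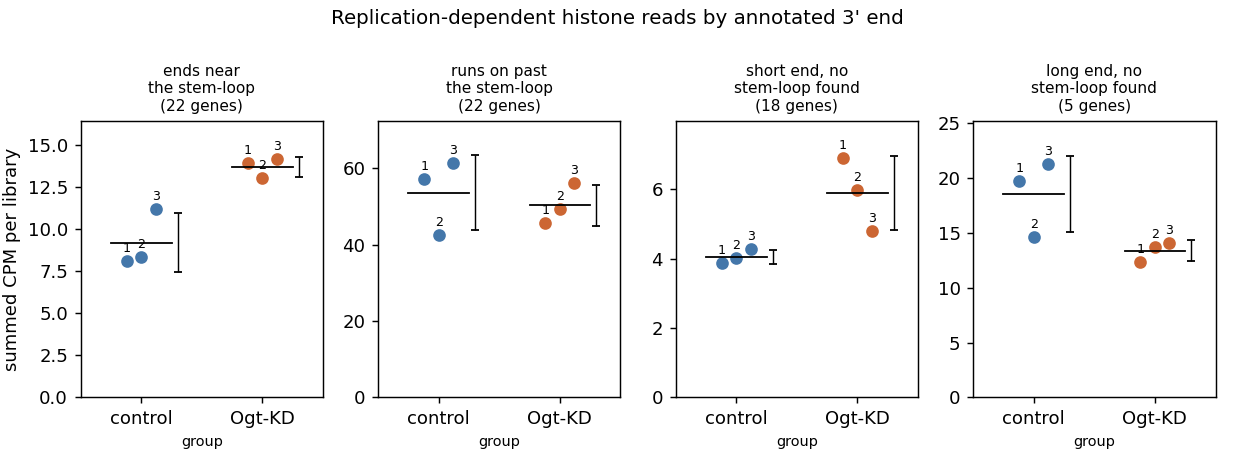
Summed CPM of replication-dependent histone genes in each library, by annotated 3′ end; points are libraries labelled by replicate number, lines are group means and bars the SD over 3 libraries, and the vertical scale differs between panels. Genes that end near the stem-loop lie at 8.08 to 11.2 CPM in the control libraries and 13.03 to 14.15 CPM in the Ogt-KD libraries, while genes that run on past it overlap.

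S phase is when replication-dependent histones are made. Like the other gene lists here, the S phase list was chosen with earlier results of these data known. Its counts are therefore a description and not independent support. All 22 genes of the list were tested and all 22 had a log2 fold change above 0, with a median of 0.46. None passed the edgeR adjusted threshold (0.00622% of all genes did), and 10 had an unadjusted p under 0.05, all higher (5.04% of all genes were). DNA topoisomerase Top2a was at 99.97, 142.6 and 145.3 CPM in the control libraries and 253.2, 236.4 and 174.1 CPM in the Ogt-KD libraries. The proliferation marker Mki67 was at 124.3, 202.5 and 199.7 against 344.5, 344.1 and 248.4 CPM (log2 fold change 0.83, SE 0.22; edgeR adjusted p = 0.526). Cdc45, of the replicative helicase, was at 8.81, 11.3 and 11.4 against 22.4, 21.3 and 12.3 CPM, and thymidine kinase Tk1 at 22.4, 34.7 and 29.4 against 55.7, 56.7 and 32.8 CPM. In all 4 genes the lowest Ogt-KD library was replicate 3, and the groups overlapped only in Tk1. The mean log2 level of the list, centred over the libraries, was -0.49, -0.12 and -0.10 in the control libraries and 0.39, 0.38 and -0.07 in the Ogt-KD libraries. Genes that end near the stem-loop summed to 13.96, 13.03 and 14.15 CPM in Ogt-KD replicates 1, 2 and 3. Those with a short end and no stem-loop summed to 6.91, 5.98 and 4.80 CPM there, and the 12 H3 genes to 6.17, 5.73 and 4.44 CPM. Erythroid markers, of a lineage whose precursors divide and can be present in the spleen, were highest in Ogt-KD replicate 3, with 10 of 11 markers above 0 and a median of 1.49. All 10 dendritic cell and antigen presentation markers were above 0 as well, with a median of 1.10. So were all 7 B cell markers (median 0.31) and all 8 neutrophil markers (median 0.37), whereas all 8 macrophage markers were below 0 (median -0.54). Plasma cell markers had 3 above 0 and 2 below, and CD8 T and NK cell markers 4 above and 1 below. With the replicate block, 3 erythroid and 4 dendritic markers passed the adjusted threshold, against 0.292% of all genes. The part of S phase genes and of these other cells in the histone values was not tested.

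Of 22 listed genes that transcribe or process histone mRNA, 21 were found and tested: 13 had a log2 fold change above 0, with a median of 0.04, 0 passed the edgeR adjusted threshold and 2 had an unadjusted p under 0.05, against 7.52% of all genes. Slbp, which binds the stem-loop, was at 48.2, 60.7 and 58.2 CPM in the control libraries and 66.4, 69.9 and 63.3 CPM in the Ogt-KD libraries, with no overlap (log2 fold change 0.26, SE 0.11, edgeR adjusted p = 0.665). Lsm11, of the U7 particle, was at 25.99, 23.36 and 22.64 against 20.7, 20.1 and 20.9 CPM, with no overlap in the other direction (log2 fold change -0.22, SE 0.10). Cyclin E2, Ccne2, was at 6.03, 8.38 and 7.83 against 11.1, 10.3 and 9.35 CPM, and Nelfe, of the negative elongation factor, at 22.0, 22.1 and 22.9 against 28.9, 31.6 and 23.7 CPM. Their log2 fold changes were 0.46 (SE 0.18) and 0.33 (SE 0.13), and neither overlapped between the groups.

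Chaperones carry histones to DNA. All 32 genes of a list for chaperones and histone deposition, which also holds the histone Cenpa, were tested. Of these, 20 had a log2 fold change above 0, and the median was 0.06. The edgeR adjusted threshold was passed by 0, with or without the block. An unadjusted p under 0.05 was found in 6, all higher, against 5.04% of all genes. In 3 every Ogt-KD library was above every control library (background 7.43%), and in 2 every one was below (background 5.88%). Cenpa, the centromeric H3 variant, was at 64.8, 75.5 and 60.7 CPM in the control libraries and 102.0, 92.2 and 79.7 CPM in the Ogt-KD libraries (log2 fold change 0.44, SE 0.12), with no overlap between the groups. Asf1b, the H3-H4 chaperone of dividing cells, was at 22.8, 26.1 and 29.8 against 41.1, 39.0 and 28.2 CPM, and Mms22l, which acts at stalled forks, at 15.1, 21.3 and 18.6 against 27.6, 26.4 and 20.98 CPM. In both, Ogt-KD replicate 3 lay inside the control range, at log2 fold changes of 0.46 (SE 0.17) and 0.44 (SE 0.17).

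Reads of near-identical histone genes limit what a single gene's value means. Of the 13 histone genes with no read in any library, 5 had under 10% of their 50-base stretches unique among GENCODE M21 transcripts: Hist2h2aa1, Hist2h2aa2, Hist2h3c1, Hist2h3b and Hist2h2bb. Over all 13 the median was 53.2% unique. The 69 histone genes with a read had a median of 54.7%, and 7 of them were under 10%. The 41 tested genes ranged from 6.5 to 100% unique, with a median of 68.5%, and 2 were under 10%, Hist1h2ao and Hist1h2ai at 9.88%. H2afz, the second most abundant histone gene per length, was at 30.4%. How reads that match several genes were counted is not given in the sources used here.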

How the data were processed

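CD4+ T cell RNA was measured in 3 control and 3 Ogt-KD libraries, each group drawn from 3 mice per the labels' design text. Per the submitters' processing notes, Bowtie2 2.0.6, TopHat2 2.0.9 and the mm9 build were used. Neither the counting tool, its strand setting nor its handling of multiply matching reads is known here. Deposited whole-number read counts per gene were the input. The authors' deposited FPKM served for levels between genes. The authors' deposited normalised signal per group was not analysed here, and the authors' deposited log2 fold changes and p-values were read beside the tests run here. Deposited gene lengths, another unit, entered no test. All 82 histone genes had identical coordinates in GENCODE M21, so positions are on GRCm38.

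Counts were tested over all 16075 genes that passed filterByExpr (10 reads at the median library size, or 0.472 CPM, in 3 libraries) with the edgeR 4.0.16 quasi-likelihood F test in R 4.3.3, robust, TMM-normalised, at a Benjamini-Hochberg adjusted p under 0.05. CPM is the count over library size times TMM factor. Intervals are at 95%. Alternatives were the replicate number as a block, DESeq2 1.42.0, its size factors in edgeR, limma-voom (limma 3.58.1), other filters, libraries left out and histone genes left out of totals. After group means were removed, libraries of the same number correlated at 0.109, 0.346 and 0.523 across genes, all above 0.1. The numbers were therefore treated as pairs in the replicate block, a pairing that comes from these counts and not from the labels. Control replicate 2 with Ogt-KD replicate 1 reached 0.267, above the 0.109 of the replicate 1 libraries. The main fit was unpaired, and printed fold changes, SE, intervals and p-values are from it unless another fit is named. The fit was tested on simulated data drawn without any effect of the replicate number. That run therefore does not show how the fit handles the differences between replicates seen here.

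The members and gene lists were chosen with earlier results of these data known. Values in every library are given for the 20 histone genes of highest mean CPM, for up to 4 genes per type or list with the smallest p, and for Ogt, Mki67 and Slbp; other genes were named after their values were seen. A gene that this rule names is not reported here.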

Additional observations from a re-analysis of the deposited data

How the results depend on the processing

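The count of histone genes past the adjusted threshold was 0 under every alternative run, and their median log2 fold change lay between 0.17 and 0.34, from 0.19 to 0.27 when 1 library was left out and at 0.25 without the 2 genes that passed the filter through the Ogt-KD libraries alone, an alternative chosen after seeing the data. Over all genes, the 1 gene past the threshold became 47 with the replicate block, 111 with DESeq2, 4 with no filter on low counts and 35 without both replicate 3 libraries, and 1 to 2 when 1 library was left out. The replicate block changed no call of a histone gene. The median of the linker genes, 0.36, ran from -0.052 without Ogt-KD replicate 1 to 0.547 without control replicate 3; the cause was not tested. Histone genes with an unadjusted p under 0.05 ranged from 3 to 12, the most without Ogt-KD replicate 3, and the counts over all genes moved likewise. Without that library it was 12 of 39 tested histone genes and 3000 of all 16329 tested genes. It was 3 of 45 and 719 of 16648 without Ogt-KD replicate 2, and 3 of 40 and 737 of 16339 without control replicate 1. Replication-dependent genes had few reads, and counting error is large for most of them: 33 of 67 could be tested.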
